A study of Mus musculus with 4 samples.

Results

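Transcripts of 9 genes of the DNA damage checkpoint and of DNA break repair were followed in mouse liver: the kinase genes Atm, Atr, Chek1 and Chek2, the histone gene H2afx, the break-site adaptor gene Trp53bp1, and the repair genes Brca1, Brca2 and Fancd2. They were chosen by name from the deposited gene tables, where all 9 were found among 35522 genes. RNA of whole liver was taken 1 day after treatment with DEN (diethylnitrosamine), which liver enzymes turn into an alkylating agent that damages DNA. The groups were 2 liver libraries labelled Control and 2 labelled Dph1 KO, both of strain C57BL/6 and both given DEN. The Dph1 protein takes part in the first step of diphthamide synthesis, a modification of translation elongation factor eEF2. The sources used here do not give the allele, the cells in which Dph1 was deleted, the animals' age or sex, or whether each library came from its own animal, so p-values cover the spread among these libraries alone, and that spread may be technical. No liver without DEN enters the comparison, so a response to DEN and a standing difference between the genotypes cannot be told apart.

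In the DNA damage response, broken ends activate the kinase ATM, and single-stranded DNA at resected ends or stalled replication forks activates ATR. The kinases phosphorylate the effector kinases CHEK2 and CHEK1, which slow the cell cycle, and the histone variant H2AX around the lesion. On this marked chromatin 53BP1 favours end joining, while BRCA1 and BRCA2 act in homologous recombination. FANCD2 is the protein of the Fanconi anaemia pathway that is ubiquitinated at interstrand crosslinks. Most of this control is by protein modification, which transcript levels do not measure, and adult liver holds few dividing cells, in which several of these genes are mainly transcribed.

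Of the 9 genes, Atr rose in Dph1 KO livers and H2afx fell, while 5 were not called and 2 (Chek1 and Fancd2) had too few reads to be tested. Atr stood at 7.57 ± 0.70 CPM (gene reads scaled to library size with TMM factors) in Control and 18.8 ± 7.39 CPM in Dph1 KO, and H2afx at 26.4 ± 1.04 and 13.9 ± 2.71 CPM (SD, n = 2 each). A gene is called here at a Benjamini-Hochberg adjusted p under 0.05 over 13303 genes in edgeR's quasi-likelihood test, and "rose" and "fell" are kept for called genes. Of all tested genes, 12.3% were called (4.86% higher and 7.47% lower), beside 2 of the 7 tested members. Shares were larger among genes of like transcript GC content. In the lowest of 5 equal classes of protein-coding genes by GC, which holds Atr, 10.4% were called higher. In the highest class, which holds H2afx, 21.4% were called lower. Both calls were lost when trends of fold change with transcript GC content and exon length, which ran through the whole data set, were removed together from each library. Values with both trends removed are called corrected for GC and length, and the part of each alone was not tested. The members' count also moved with single libraries. Without Dph1 KO replicate 2, 4 members were called higher and 1 lower, where 39.3% of all genes were called. Without Control replicate 1 (5.43% of all genes called) or Control replicate 2 (3.82%), 1 was higher and 0 lower, and without Dph1 KO replicate 1 (9.74%) 1 was higher and 1 lower. With no scaling beyond the library total (25.7%), 4 were higher and 1 lower.

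The sequence before the start of 3 of the genes is shown because Atr was the only member that rose, while Brca2 and Atm had the next largest positive fold changes. Each run is the 250 bases before the RefSeq start (GRCm38.p6), read 5′ to 3′ on the gene's strand. Atr lies on the plus strand (chr9:95857347-95857596), Atm on the minus strand (chr9:53536672-53536921) and Brca2 on the plus strand (chr5:150522371-150522620).
Atr: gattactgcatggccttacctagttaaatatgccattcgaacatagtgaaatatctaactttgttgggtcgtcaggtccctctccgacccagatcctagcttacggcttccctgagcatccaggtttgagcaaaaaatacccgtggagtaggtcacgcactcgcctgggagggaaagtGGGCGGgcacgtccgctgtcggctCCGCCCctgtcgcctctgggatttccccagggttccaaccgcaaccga
Atm: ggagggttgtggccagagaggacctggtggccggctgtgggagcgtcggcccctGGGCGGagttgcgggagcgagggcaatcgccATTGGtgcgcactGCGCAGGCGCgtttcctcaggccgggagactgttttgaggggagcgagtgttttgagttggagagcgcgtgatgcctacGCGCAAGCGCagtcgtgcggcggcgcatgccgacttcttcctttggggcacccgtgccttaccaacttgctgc
Brca2: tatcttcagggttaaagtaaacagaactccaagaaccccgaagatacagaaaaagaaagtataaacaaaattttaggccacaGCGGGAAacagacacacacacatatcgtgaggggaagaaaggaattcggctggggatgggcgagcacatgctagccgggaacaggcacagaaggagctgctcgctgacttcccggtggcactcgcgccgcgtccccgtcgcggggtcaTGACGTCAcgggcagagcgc
Capitals mark matches on either strand to 5 motifs: the E2F letters (TTCCCGC or its variant TTCGCGC, and also TTGCCGC with its variant TTGGCGC), the CCAAT box, the GC box GGGCGG, the cyclic AMP response element core TGACGT, and the NRF1 motif. In Brca2 the response element core matches on both strands, so its 2 matches overlap. Promoter entries were found for 7 of the 9 members, without Fancd2 and H2afx. An E2F match was held by 2 of the 7 (Brca2 and Chek2) and by 7.89% of 32851 promoter windows of this length. A CCAAT box was held by 3 (Atm, Chek2 and Brca1) beside 33.8% of all windows, and a GC box by 3 (Atm, Atr and Trp53bp1) beside 32.7%. The response element core was held by 2 (Brca1 and Brca2) beside 6.47%, and the NRF1 motif by Atm alone among the 7, beside 3.74%. These are matches of letters only, and no binding was measured. No motif was common to the 6 members with higher values in Dph1 KO. GC content before the start was 55.2% in Atr, 54.4% in Brca2 and 66.0% in Atm, above the median of 52.4% over all windows. Atr and Brca2 lay between the quartiles of 45.2% and 61.2%, and Atm lay above them. Brca1, also with higher values in Dph1 KO, was at 51.2%, below the median.

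Facts of the libraries that bear on these genes are few. The libraries held 19474596 to 21137358 reads in genes, of which 89.3% to 90.2% matched 1 place. Dph1 was lower in the libraries labelled Dph1 KO, with 1292 and 1228 reads in Control against 421 and 689 (log2 fold change -1.49, SE 0.26, edgeR adjusted p = 0.0107). Dph1 overlaps Ovca2, so some of these reads cannot be assigned for certain. Hepatocyte genes were high in every library, with summed levels of 7 markers at 70844 and 88603 CPM in Control against 56515 and 57979 CPM in Dph1 KO. Of the 7, edgeR called 1 lower (Apoa1), beside 7.47% of all tested genes. Apoa1 had 26414 and 33265 CPM in Control against 6265 and 9499 CPM in Dph1 KO. The sums thus follow Apoa1 in large part, while 4 of the 7 had log2 fold changes above 0 (list median 0.056). The smallest exact permutation p for 2 against 2 libraries is 0.333, so every call rests on the spread shared across genes.

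Levels per transcript length set the genes far apart. H2afx was the most abundant of the 9, at 29.1 ± 0.74 TPM in Control and 19.9 ± 0.79 TPM in Dph1 KO (SD, n = 2). TPM, given by the authors per exon length, is used here to compare levels between genes. Atr followed at 1.28 ± 0.10 and 4.53 ± 2.40 TPM, Trp53bp1 at 1.02 ± 0.080 and 1.97 ± 0.60, Chek2 at 0.68 ± 0.20 and 1.39 ± 0.089, and Atm at 0.45 ± 0.10 and 1.07 ± 0.38. Brca1 (0.218 ± 0.0019 and 0.48 ± 0.22 TPM) and Brca2 (0.18 ± 0.036 and 0.49 ± 0.16 TPM) had about the same level. Chek1 and Fancd2 had means of 0.048 and 0.027 TPM over the 4 libraries. In Control no neighbours in this order from H2afx to Brca2 overlapped, though Chek2 (0.534 and 0.818 TPM) lay close to Atm (0.523 and 0.374 TPM) and Brca1 close to Brca2. In Dph1 KO the ranges of Chek2 (1.46 and 1.33 TPM) and Atm (1.34 and 0.804 TPM) overlapped, as did those of Brca1 and Brca2. The effector kinase gene of the ATR branch, Chek1, thus had a far lower level than Chek2, that of the ATM branch.

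**Figure D1:**
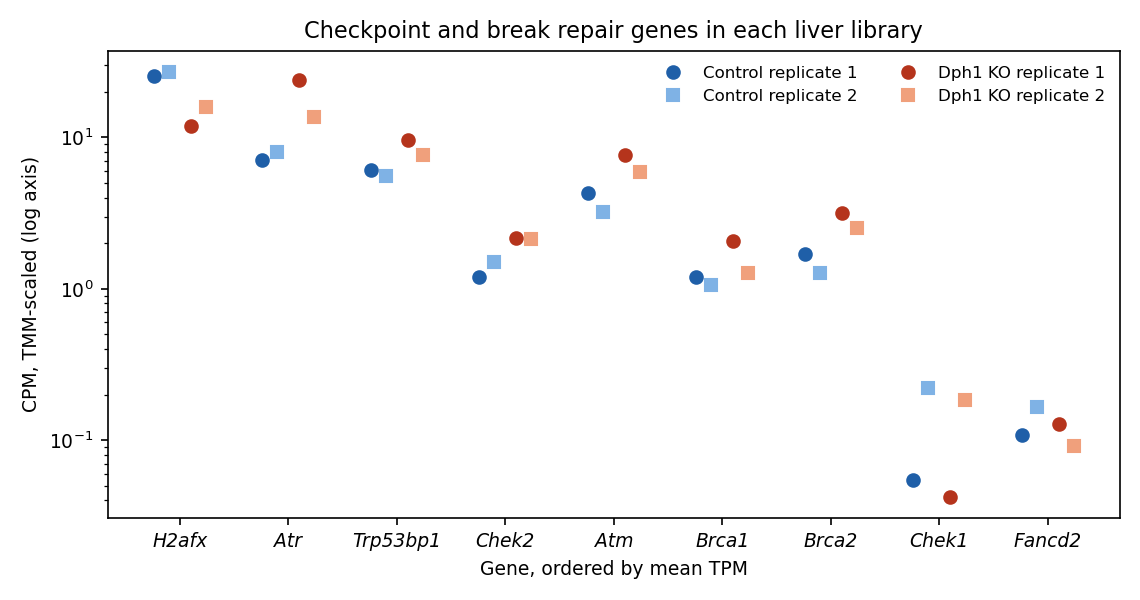
TMM-scaled gene reads (CPM, log axis) of the 9 genes in each of the 4 libraries, ordered by mean TPM; each point is 1 library. In 6 genes both Dph1 KO points lie above both Control points, in H2afx both lie below, and Chek1 and Fancd2, at 1 to 4 reads a library, overlap.

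Atr encodes the kinase that answers single-stranded DNA and fork stalling, and it is essential in dividing cells. Its gene lies on chromosome 9 at 95857597 to 95951644 (GRCm38, plus strand, 47 exons in the deposited tables). It had 130 and 145 reads in Control against 567 and 297 in Dph1 KO, or 7.07 and 8.06 CPM against 24.0 and 13.6 CPM. Both Dph1 KO libraries stood above both Control libraries, and replicate 1 was the higher of the pair. The log2 fold change was 1.31 (SE 0.28, edgeR adjusted p = 0.0200). Reads across exon junctions, which come from spliced RNA, were 62 and 90 in Control against 262 and 148 in Dph1 KO. All Atr reads matched 1 place. The genes that overlap Atr on the other strand, 1700065D16Rik and Gm16794, had 7 and 11 reads over the 4 libraries. Leaving out 1 library gave log2 fold changes from 0.87 (without Dph1 KO replicate 1) up to 1.68 (without Dph1 KO replicate 2), and edgeR called Atr in all 4 of these fits. DESeq2 (1.28, adjusted p = 0.00199) and limma-voom (1.26, adjusted p = 0.0307) called it too. Corrected for GC and length, the log2 fold change was 0.59 (SE 0.17, edgeR adjusted p = 0.0630), short of a call. Limma-trend on log2(TPM + 1), which called 0.0226% of all genes, did not call it either (adjusted p = 0.195).

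Atm encodes the kinase that answers double-strand breaks. Its gene lies on chromosome 9 at 53437122 to 53536671 (minus strand, 64 exons). The reads were 79 and 58 in Control against 180 and 129 in Dph1 KO, or 4.30 and 3.23 CPM against 7.63 and 5.90 CPM. The groups did not overlap, but the difference was not called (log2 fold change 0.85, SE 0.27, edgeR adjusted p = 0.0641). It was called without Dph1 KO replicate 2 (1.03, adjusted p = 0.0151), and corrected for GC and length it was 0.12 (SE 0.22). The ratio of Atr to Atm in TPM was 2.31 and 3.63 in Control against 4.63 and 3.52 in Dph1 KO. These ranges overlapped, so the libraries did not separate the genotypes by the balance of the 2 kinase transcripts.

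Chek2, the kinase that ATM activates, lies on chromosome 5 at 110840017 to 110874133 (plus strand, 15 exons). It had 22 and 27 reads in Control against 51 and 47 in Dph1 KO, or 1.20 and 1.502 CPM against 2.16 and 2.15 CPM. The Dph1 KO libraries agreed closely and stood above Control, without a call (log2 fold change 0.67, SE 0.35, edgeR adjusted p = 0.189). Corrected for GC and length, the log2 fold change was 0.49 (SE 0.31), the second largest of the 7 tested members after Atr. Chek1, the kinase that ATR activates, lies on chromosome 9 at 36708482 to 36726658. It had 1 and 4 reads in Control against 1 and 4 in Dph1 KO. The ratio of Dph1 KO to Control for Chek1, scaled to library size, was 0.80, with a 95% counting interval of 0.184 to 3.48 (Clopper-Pearson, counting error only). A change within that interval was not detectable at this depth.

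H2afx encodes the histone variant H2AX, whose phosphorylated form marks breaks. It is a gene of 1 exon on chromosome 9 at 44334715 to 44336077 (plus strand). H2afx had 471 and 487 reads in Control against 282 and 345 in Dph1 KO, all uniquely matched, or 25.6 and 27.1 CPM against 11.95 and 15.8 CPM. Both Dph1 KO libraries were lower than both Control libraries, replicate 1 the lowest. The log2 fold change was -0.93 (SE 0.21, edgeR adjusted p = 0.0245). The libraries were made with an mRNA kit, and H2AX transcripts are known in a polyadenylated form and in a form without a poly(A) tail, so the values may hold only part of them. Without Control replicate 1 the log2 fold change was -0.97 (edgeR adjusted p = 0.0604) and without Control replicate 2 it was -0.89 (edgeR adjusted p = 0.124), so the call was lost in both. Corrected for GC and length, it was -0.14 (SE 0.14, edgeR adjusted p = 0.552).

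Trp53bp1 encodes 53BP1, which shields broken ends from resection. Its gene lies on chromosome 2 at 121196727 to 121271386 (minus strand, 28 exons), and its end overlaps Tubgcp4, with 961 reads over the 4 libraries, so reads in the overlap cannot be assigned for certain. It had 112 and 100 reads in Control against 227 and 167 in Dph1 KO, or 6.09 and 5.56 CPM against 9.62 and 7.64 CPM. Dph1 KO stood above Control in both libraries and was not called (log2 fold change 0.57, SE 0.24, edgeR adjusted p = 0.121). Without Dph1 KO replicate 2 the log2 fold change was 0.74 and was called (edgeR adjusted p = 0.0267). The ratio of Atr to Trp53bp1 in TPM was 1.12 and 1.41 in Control against 2.61 and 1.84 in Dph1 KO, without overlap. This ratio holds the rise of Atr given above and is no separate result. Trp53bp1 transcripts hold 48.0% GC against 40.8% in Atr.

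The recombination genes Brca1 and Brca2 were read at low depth. Brca2, on chromosome 5 at 150522623 to 150569749 (plus strand, 28 exons), had 31 and 23 reads in Control against 75 and 55 in Dph1 KO, or 1.69 and 1.28 CPM against 3.18 and 2.52 CPM. Its log2 fold change was 0.94 (SE 0.34, edgeR adjusted p = 0.0850). Brca2 was thus higher in both Dph1 KO libraries without a call, and it was called without Dph1 KO replicate 2 (1.11, edgeR adjusted p = 0.0462). Brca1, on chromosome 11 at 101488764 to 101551955 (minus strand, 23 exons), had 22 and 19 reads in Control against 49 and 28 in Dph1 KO, or 1.20 and 1.06 CPM against 2.08 and 1.28 CPM. The lower Dph1 KO library of Brca1 lay just above the higher Control library. Its log2 fold change was 0.58 (SE 0.40, edgeR adjusted p = 0.318), and it was 0.21 without Dph1 KO replicate 1. Values corrected for GC and length were 0.23 (SE 0.30) for Brca2 and 0.13 (SE 0.34) for Brca1. Fancd2, on chromosome 6 at 113531682 to 113596285 (plus strand, 44 exons), had 2 and 3 reads in Control against 3 and 2 in Dph1 KO. As for Chek1, the ratio was 0.80 with a counting interval of 0.184 to 3.48, so no direction could be read for Fancd2.

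Across the members, Dph1 KO replicate 1 lay farther from Control than replicate 2 in each of the 7 tested genes, though in Chek2 by little. All 7 had groups that did not overlap, 6 higher and 1 lower, where 67.4% of all tested genes had such groups (34.9% higher and 32.5% lower). Over the 6 tested genes with several exons, summed reads were 396 and 372 in Control against 1149 and 723 in Dph1 KO. The sums are not scaled to library size. Atr alone gave 275 reads over the Control libraries and 864 over the Dph1 KO libraries. Intron reads were 13.9% and 6.45% of the summed reads in Control against 8.09% and 8.44% in Dph1 KO, so their share overlapped between the genotypes. Over all genes off the mitochondrial genome, 4.05% and 3.36% of Control reads lay in introns against 5.77% and 4.67% of Dph1 KO reads, and the part of this in the results was not tested.

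The fold changes of the members followed the GC content of their transcripts. Atr (40.8% GC in its longest GENCODE M21 transcript), Brca2 (42.4%) and Atm (42.6%) had the lowest GC of the 7 tested and the largest positive values, and H2afx, at 62.3%, was the only one below 0. Brca1 (46.2%), Chek2 (46.4%) and Trp53bp1 (48.0%) lay between. The same relation ran across the genome: over 12504 tested protein-coding genes, Spearman's rho between GC content and fold change was -0.62. Across the 79 tested members and other pathway genes it was -0.56. Both are descriptions across genes of the same 4 libraries, which are not independent replicates. In 5 equal classes of genes by GC, the median log2 fold change fell from 0.48 in the lowest class through 0.29, 0.066 and -0.23 to -0.56 in the highest.

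Set beside the median of its own class, Atr was 0.84 higher on the log2 scale, Trp53bp1 0.50, Brca2 0.46, Chek2 0.39, Atm 0.37 and Brca1 0.29 higher, and H2afx was 0.36 lower. Each member thus lay on the outer side of its class median, with no test attached. With fitted trends of GC and length taken out of every library, the median log2 fold change of the 7 was 0.20, beside -0.0069 over all tested genes, and 0 of the 7 were called, where 8.77% of all genes were. Before this step the medians were 0.67 and 0.041. At an unadjusted p under 0.05, without the correction, edgeR had 4 of the 7 higher and 1 lower, beside 34.2% of all genes in either direction. After correction Spearman's rho over the 79 genes was -0.010. The step removes the GC trend fitted over all tested genes, these 79 included. A rho near 0 thus largely follows from the step and is no separate result. The correction changed sizes and calls and left the sign of all 7.

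**Figure D2:**
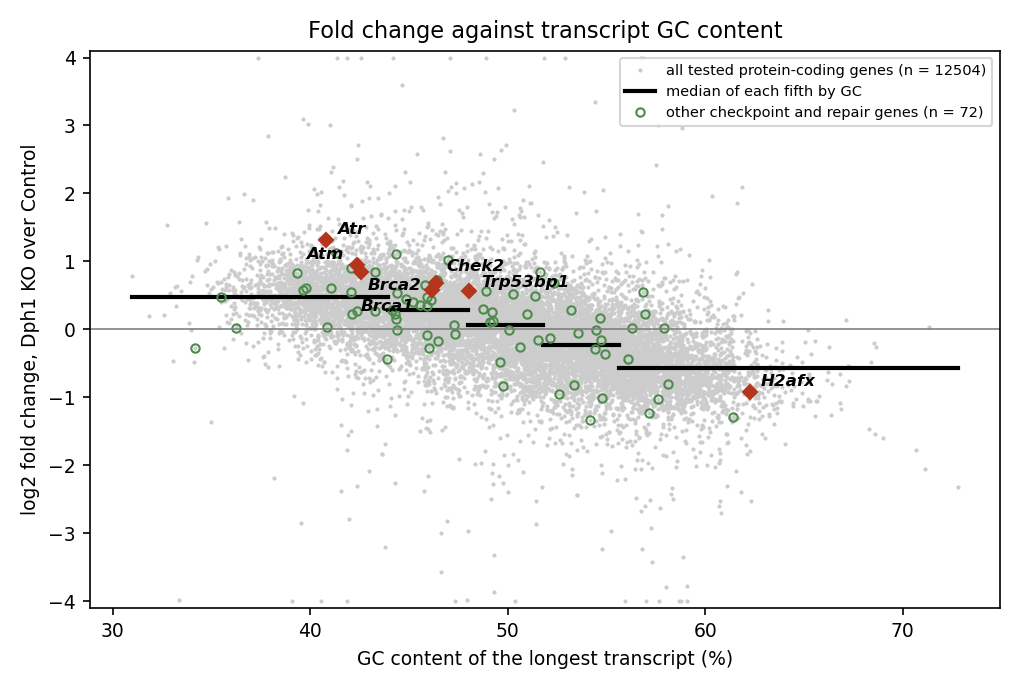
Log2 fold change (Dph1 KO over Control, edgeR) against GC content of the longest transcript, with 1 point for each tested protein-coding gene (grey), the other checkpoint and repair genes (green circles) and the 7 tested members (red diamonds); black bars are medians of 5 classes of equal size, and values beyond 4 in either direction are drawn at the edge. Members with little GC lie above 0 and H2afx, at 62.3% GC, lies below.

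**Figure D3:**
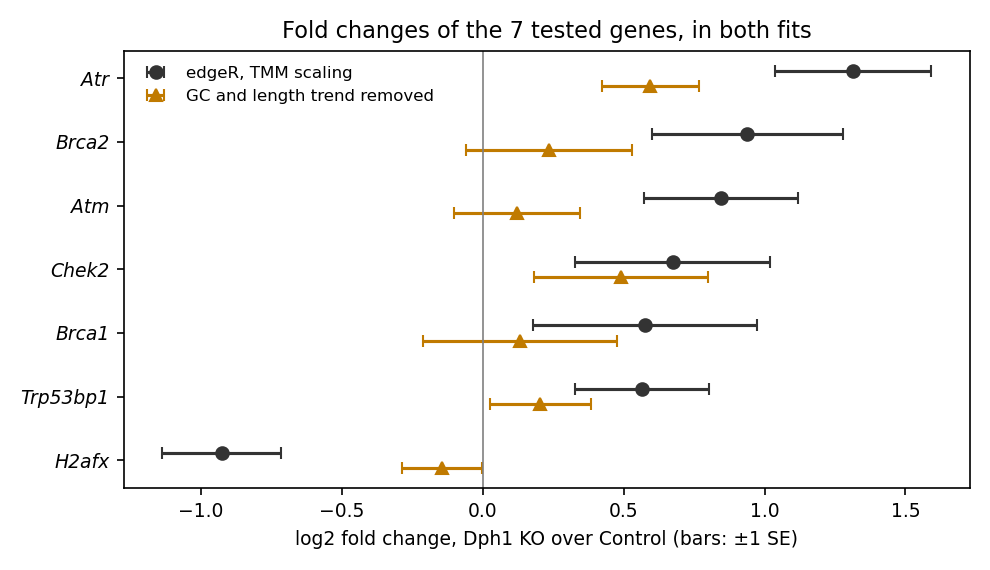
Log2 fold change with 1 SE for the 7 tested genes in the fit with TMM scaling (circles) and with the GC and length trend removed (triangles). All 7 keep their sign and move toward 0, Atr from 1.31 to 0.59 and H2afx from -0.93 to -0.14.

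The genes whose values ran most like the 2 called members were sought by distance between log2 CPM centred on their mean, over 4 libraries and 11614 other protein-coding genes. Nearest to Atr were Rgn (log2 fold change 1.34, transcript GC 41.7%), Zbtb26 (1.44, 39.7%) and Crot (1.24, 44.1%). Nearest to H2afx were Gaa (-0.90, 59.5%), Dnajc30 (-0.91, 54.5%) and Cks1b (-0.93, 49.2%). With 4 libraries such likeness describes size and direction of the difference and little more.

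Beyond the 9, 80 other genes of the checkpoint and of break repair were read off the same fit, in 7 lists, and 72 could be tested. Of these, 1 rose (Fan1) and 6 fell (Rad9, Fance, Fancc, Ercc1, Poll and Trp53), beside 12.3% called over all tested genes. Their median log2 fold change was 0.19, beside 0.041 over all tested genes, and 0.0052 after correction for GC and length. The counts moved with single libraries: leaving out Control replicate 1 left 0 higher and 2 lower, Control replicate 2 left 0 and 1, Dph1 KO replicate 1 left 1 and 4, and Dph1 KO replicate 2 left 9 and 8. With no scaling beyond the library total, 10 were higher and 2 lower, and Rad9, Fancc, Poll and Trp53 lost their calls. Fance alone of the 7 was called in all 4 fits that left out a library.

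**Figure D4:**
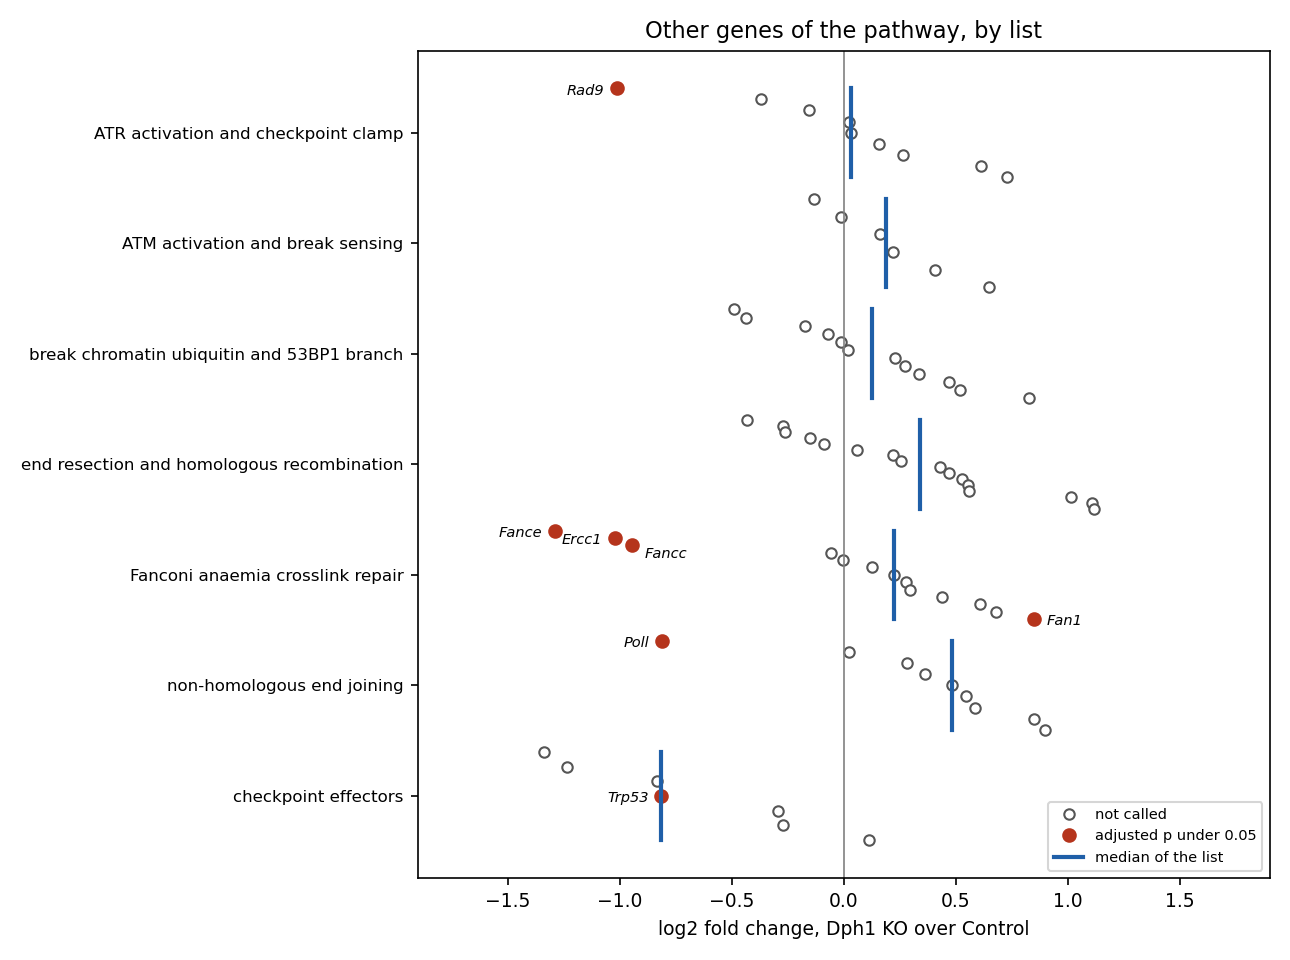
Log2 fold change (Dph1 KO over Control) of the 72 tested genes of 7 pathway lists; each circle is 1 gene, filled where edgeR's adjusted p was under 0.05, and blue bars are list medians. Called genes lie at both sides, with 6 of the 7 below 0, and only the checkpoint effectors have a median below 0.

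Among 9 tested genes of ATR activation and the checkpoint clamp, 1 fell and none was called higher. Over all tested genes 7.47% were called lower and 4.86% higher. Topbp1, which activates ATR and was chosen after its values were seen, had 4.51 and 4.23 CPM in Control against 7.88 and 6.59 CPM in Dph1 KO, without overlap (log2 fold change 0.73, edgeR adjusted p = 0.0719). It was called higher with no scaling beyond the library total (0.99) and without Dph1 KO replicate 2 (0.86). Etaa1, the other ATR activator, likewise chosen, was at 0.61 (edgeR adjusted p = 0.270). Atrip, the obligate binding partner that brings ATR to single-stranded DNA and was chosen after its values were seen, had 15.3 and 11.5 CPM in Control against 9.62 and 11.1 CPM in Dph1 KO (log2 fold change -0.37, edgeR adjusted p = 0.259). The TPM ratio of Atr to Atrip was 0.145 and 0.236 in Control against 0.952 and 0.414 in Dph1 KO, without overlap. It too holds the rise of Atr and is no separate result. Atrip transcripts hold 54.9% GC against 40.8% in Atr. The gene that fell was Rad9, a subunit of the ring-shaped clamp loaded at damage, with 10.7 and 9.57 CPM in Control against 4.45 and 5.58 CPM in Dph1 KO (log2 fold change -1.01 with an SE of 0.24, adjusted p = 0.0270 by edgeR). Its call was lost without either Control library and after correction for GC and length (-0.67, adjusted p = 0.0530). The clamp's other subunit genes, Rad1 (0.27) and Hus1 (0.16), also chosen after their values were seen, were not called.

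No gene among 6 of ATM activation and break sensing was called by edgeR, DESeq2 or limma-voom. At an unadjusted p under 0.05 edgeR had 1 higher, beside 34.2% of all tested genes in either direction. The most abundant were Kat5, an acetyltransferase that modifies ATM, at 10.6 ± 0.75 and 11.8 ± 0.015 CPM (log2 fold change 0.16), and Nbn, which recruits ATM to breaks, at 8.78 ± 1.66 and 8.69 ± 1.49 CPM (-0.014; SD, n = 2 in Control and Dph1 KO). Nbn acts in a complex with the products of Mre11a (0.65) and Rad50 (0.41), which were chosen after their values were seen and not called. Among 12 genes of the ubiquitin and 53BP1 branch, edgeR, DESeq2 and limma-voom called none. By edgeR 1 was higher and 1 lower at an unadjusted p under 0.05, again beside 34.2% of all tested genes. Babam1, a subunit of the complex that binds BRCA1 to ubiquitinated chromatin, stood at 220.5 and 254 CPM in Control against 133 and 218 CPM in Dph1 KO (log2 fold change -0.43, edgeR adjusted p = 0.279). It was called lower without Dph1 KO replicate 2 (-0.82). Mad2l2, which acts below 53BP1 in end protection, was at 38.0 ± 3.32 and 38.5 ± 11.97 CPM, with a log2 fold change of 0.018 that was 0.62 and called after correction for GC and length (edgeR adjusted p = 0.0298).

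Among 16 tested genes of end resection and homologous recombination, none was called by edgeR, DESeq2 or limma-voom. At an unadjusted p under 0.05 edgeR had 3 higher, beside 34.2% of all tested genes in either direction. Rpa1, the large subunit of the protein that coats single-stranded DNA, had 23.8 and 21.7 CPM in Control against 33.6 and 33.3 CPM in Dph1 KO (log2 fold change 0.56, SE 0.19, edgeR adjusted p = 0.0705). Both Dph1 KO libraries lay above Control and close together, and Rpa1 was called without Dph1 KO replicate 1 and without replicate 2. Bard1, whose product pairs with BRCA1, was too thinly read to be tested, at 1 and 0 reads in Control against 2 and 4 in Dph1 KO, and was chosen after its values were seen.

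The Fanconi anaemia list held most of the calls, with 1 rise and 3 falls among 13 tested. Over all tested genes 4.86% were called higher and 7.47% lower. Fance and Ercc1 lay in the highest of the 5 GC classes, where 21.4% of genes were called lower. Fance, a subunit of the core complex that ubiquitinates FANCD2, had 31.7 and 27.1 CPM in Control against 9.92 and 14.1 CPM in Dph1 KO (log2 fold change -1.29, SE 0.23, edgeR adjusted p = 0.0102). After correction for GC and length Fance was at -0.60 and was still called (adjusted p = 0.0452). Fan1, a nuclease of crosslink repair, had 5.60 and 6.45 CPM in Control against 12.2 and 9.51 CPM in Dph1 KO (0.85, SE 0.24, edgeR adjusted p = 0.0433). Corrected for GC and length, Fan1 was at 0.89 and called, but it was not called by DESeq2 or limma-voom or without either Control library or Dph1 KO replicate 1. Ercc1, partner of the nuclease XPF, had 15.0 and 23.9 CPM in Control against 7.42 and 11.8 CPM in Dph1 KO (-1.02, edgeR adjusted p = 0.0437). Correction for GC and length (-0.45) ended the call of Ercc1, as did leaving out Control replicate 2 or Dph1 KO replicate 1. Fancc, a further core complex subunit outside the naming rule and chosen after its values were seen, had a log2 fold change of -0.95 (edgeR adjusted p = 0.0468). Its value corrected for GC and length was -0.89 and called, while DESeq2, limma-voom and the fits without either Control library or without Dph1 KO replicate 1 did not call it. The list thus held called genes in both directions.

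Among 9 genes of non-homologous end joining, 1 fell, beside 7.47% of all tested genes called lower. Poll, a gap-filling DNA polymerase gene, had 33.8 CPM in both Control libraries and 15.7 and 22.8 CPM in Dph1 KO (log2 fold change -0.81 with an SE of 0.22, adjusted p = 0.0406 by edgeR). The call was lost after correction for GC and length (-0.28) and without either Control library or Dph1 KO replicate 1. The other 8 had log2 fold changes above 0 and were not called, beside 7005 of all 13303 tested genes with values above 0. The list's median was 0.48 (0.23 after correction for GC and length), and its median transcript GC was 45.6%.

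Among 7 tested checkpoint effector genes 1 fell, beside 7.47% of all tested genes called lower. Log2 fold changes were below 0 in 6 of the 7, while 7005 of all 13303 tested genes had values above 0. The list's median was -0.81 (-0.56 after correction for GC and length), and its median transcript GC was 53.3%. At an unadjusted p under 0.05 edgeR had 4 lower, beside 34.2% of all tested genes in either direction. Trp53, the gene of the p53 protein that ATM and CHEK2 stabilise, had 58.4 and 57.4 CPM in Control against 31.45 and 34.4 CPM in Dph1 KO (log2 fold change -0.81, SE 0.19, edgeR adjusted p = 0.0280). Corrected for GC and length it was at -0.55 and called (adjusted p = 0.0415), while its call was lost without either Control library. Wee1, which encodes the kinase that holds CDK1 inactive and was chosen after its values were seen, had 14.1 and 17.35 CPM in Control against 10.6 and 6.998 CPM in Dph1 KO. Its log2 fold change was -0.84 (edgeR adjusted p = 0.0510), just above the threshold, and corrected for GC and length it was -0.91 and called. In both genes the Dph1 KO libraries lay below both Control libraries.

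Several of these genes are transcribed mostly in dividing cells, and liver holds other cell types, so marker lists were read beside them. In bulk tissue, fewer cells of a type and less RNA per cell cannot be told apart. Of 10 proliferation markers 9 were tested and none was called by edgeR, DESeq2 or limma-voom. At an unadjusted p under 0.05 edgeR had 1 higher and 2 lower, beside 34.2% of all tested genes in either direction. Their summed level was 45.5 and 48.4 CPM in Control against 44.5 and 47.7 CPM in Dph1 KO, with overlap. The cycling genes Mki67 (0.49 and 0.17 CPM in Control against 0.72 and 0.69 in Dph1 KO) and Ccnb1 (2 to 4 reads a library), chosen after their values were seen, were thinly read. Mki67 was higher in both Dph1 KO libraries without a call (log2 fold change 1.08, edgeR unadjusted p = 0.083, adjusted p = 0.197). Mcm2 (-0.64, edgeR adjusted p = 0.0948) and Mcm5 (-0.66, edgeR adjusted p = 0.122), likewise chosen, were lower in both without a call. Groups did not overlap in 3 markers that were higher and 2 that were lower, beside 67.4% of all tested genes. Leukocyte markers summed to 8.70 and 9.07 CPM in Control against 8.43 and 10.2 CPM in Dph1 KO, with 1 of 5 tested lower (Cd79a). Of the other tested leukocyte markers, Ptprc was at 0.59 (edgeR adjusted p = 0.139, groups not overlapping), Nkg7 at 0.27, Cd4 at 0.094 and S100a9 at -0.39. Kupffer cell markers summed to 270 and 278 CPM in Control against 173 and 275 CPM in Dph1 KO, where 1 of 6 fell (Cd68) and 4 had log2 fold changes above 0 (Emr1 0.55, Vsig4 0.50, Clec4f 0.24 and Cd5l 0.077). Stellate cell markers summed to 128 and 150 CPM against 128 and 112 CPM, where 3 of 6 fell (Des, Col1a1 and Acta2). Falls in the leukocyte, Kupffer cell and stellate lists stand beside 7.47% of all tested genes called lower. Of the other stellate markers, Lrat was at 0.84 (edgeR adjusted p = 0.0662, groups not overlapping), Dcn at 0.29 and Reln at -0.16. Endothelial (5 tested), bile duct (5 tested) and erythroid markers (2 tested) held no call by edgeR, DESeq2 or limma-voom. By edgeR 2 bile duct markers were lower at an unadjusted p under 0.05, beside the same 34.2% of all tested genes. The part of these cell types in the results was not tested.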

How the data were processed

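The members and gene lists were chosen with earlier results of these data known. Per the labels, RNA was made into stranded mRNA libraries, and per the submitters' processing notes the build was GRCm38 (mm10). No source used here gives the aligner, the counting tool or its strand setting. Per the file headers, the authors gave read counts per gene (total, unique, exon, junction and intron) and TPM and RPKM values from exon reads. Deposited fractions and RPKM were not used.

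Total gene reads were filtered (filterByExpr), scaled by TMM and compared with edgeR 4.0.16 (R 4.3.3; genotype only, all 4 libraries; biological coefficient of variation 18.5%). The SE is the log2 fold change over the square root of F. Transcript GC content was read off each gene's longest GENCODE M21 model (found for 99.5% of protein-coding genes); mgcv 1.9.3 fitted GC and log2 exon length trends in each library (basis size 6) as offsets. DESeq2 1.42.0 and limma 3.58.1 gave alternatives. The test was checked on simulated counts. List genes were matched by name or gene ID (1 of 142 unmatched). Named genes were the 9 members, and per list up to 3 called genes with the lowest p, or the 2 most abundant by mean TPM where none was called. Up to 3 nearest genes with a mean of at least 1 CPM were named too. The results of 1 gene named by this rule and 1 marker gene are not reported here.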

Additional observations from a re-analysis of the deposited data

How the results depend on the processing

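All 7 tested members kept their sign in all 13 alternatives. Alternatives without a value over 1.5 times away are not listed. With no scaling beyond the library total, which moved the median log2 fold change of all genes by 0.26 and the share of rises among calls from 39.4% to 77.0%, 3423 genes were called in place of 1640, 4 members were higher (Atm, Atr, Brca2 and Trp53bp1), and 10 other pathway genes were higher and 2 lower. With no filter on low counts 2 members (Atr and Atm) were higher. With the GC and length trend removed, 0 members were called in either direction and 2 other genes were higher (Fan1 and Mad2l2). DESeq2 and limma-voom called 0 other genes higher. Limma-trend on log2(TPM + 1), whose median over all genes stood 0.19 higher, called 3 genes in all and 0 of the members and of the other genes in either direction. Leaving out 1 library gave 528 to 5405 genes called, 1 to 4 members higher and 0 to 1 lower, and 0 to 9 other genes higher and 1 to 8 lower, where a lone library is assumed to vary as the other pair does. Signs changed in some genes that were not called: Nbn was at 0.26 with no scaling, 0.017 with exon reads, 0.32 by limma-trend and -0.20 to 0.19 with 1 library left out (above 0 without Control replicate 2 or Dph1 KO replicate 2). Mad2l2 was at -0.0083 with RLE factors, -0.0082 by DESeq2, -0.013 by limma-voom and -0.32 to 0.33 with 1 library left out (below 0 without Control replicate 1 or Dph1 KO replicate 2). Rad1 was at -0.020 (without Control replicate 2) to 0.62 with 1 library left out, and Cdkn1a (otherwise -0.29) at 0.089 by limma-trend. Corrected for GC and length, Babam1 was at 0.018, Hus1 at -0.28, Rad50 at -0.022 and Cdkn1a at 0.032. Where not stated, the cause was not tested. No paired analysis was possible because the labels give no replicate numbers, and the numbers used here follow accession order and only name the libraries. At this depth Chek1 and Fancd2 could not be compared.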
